A study of Caenorhabditis elegans with 2 samples.

Results

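The autosomal promoter regions ranked for ELT-1 are the regions of the authors' pooled list that lie on the 5 autosomes and whose summit, the position the list gives inside each region, falls from 1000 bp upstream to 200 bp downstream of a transcript start of a protein-coding gene. Of the 30000 ranked regions, 7414 met this rule, and 16609 autosomal regions lay outside promoters. The choice rests on position alone, not on signal. The authors' thresholded list, made with the irreproducible discovery rate, a measure of how far ranks agree between replicates, held 110 of the 7414 promoter regions, or 1.48% (exact 95% interval 1.22 to 1.79%). It held 0.867% of the autosomal regions outside promoters, 1.06% of all autosomal regions and 1.17% of all ranked regions. The 110 are called thresholded promoter regions here.

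The assay was chromatin immunoprecipitation followed by sequencing (ChIP-seq) of ELT-1 in 2 biological replicates of L2 larvae of Caenorhabditis elegans, whole animals of mixed sex. The labels give 1 group, so nothing was compared between conditions. All animals were of strain OP354, with the genotype unc-119(tm4063) III; wgIs354, and the label describes an insertion that targets elt-1 and an eGFP-tagged ELT-1 as the immunoprecipitated protein. Whole larvae hold many tissues, so a region's signal cannot be assigned to a cell type. Where transgene copies carry the same DNA as a native locus, signal from copies and locus cannot be told apart. Read depth is unknown from these lists. Both replicates were ranked against the same control, per the listing deposited with the files. Intervals over regions cover only the counting of regions.

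GATA factors are zinc finger proteins that bind short DNA sites built around the letters GATA. ELT-1 is the GATA factor that specifies epidermal fate in the worm embryo, and the worm epidermis, or hypodermis, later makes the cuticle that is replaced at each molt. A promoter is the DNA around a transcript start from which transcription is initiated, and in worms many mature transcript ends are set by trans-splicing, which joins a short leader to the transcript, so an annotated start can lie downstream of the true one.

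The strongest thresholded promoter regions with a GATA site are shown first, because these letters are the known binding site of the family and the results below turn on them. A GATA site is the word AGATAA, the word AGATAG, the word TGATAA or the word TGATAG on either strand, given in capitals in the bases from 50 bp before to 50 bp after the summit. The sequences are plus strand, 5′ to 3′, from the RefSeq genome of WBcel235, which is ce11. A site of the minus strand appears as its reverse complement, so that AGATAA reads TTATCT.
elt-1 internal region, chrIV:9615689-9615789: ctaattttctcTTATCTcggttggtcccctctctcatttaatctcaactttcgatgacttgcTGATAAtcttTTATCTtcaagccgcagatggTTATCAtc
hir-1, chrV:5523373-5523473: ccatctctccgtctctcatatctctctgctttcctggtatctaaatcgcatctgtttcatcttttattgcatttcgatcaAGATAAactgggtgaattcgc
ZK546.19 and cblc-1, chrII:4941566-4941666: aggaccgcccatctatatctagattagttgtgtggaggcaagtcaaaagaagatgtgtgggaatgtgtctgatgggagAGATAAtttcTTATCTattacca
elt-1 upstream region, chrIV:9614240-9614340: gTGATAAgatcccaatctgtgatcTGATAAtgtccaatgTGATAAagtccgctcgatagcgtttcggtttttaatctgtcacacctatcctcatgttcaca
tag-10, chrII:13632459-13632559: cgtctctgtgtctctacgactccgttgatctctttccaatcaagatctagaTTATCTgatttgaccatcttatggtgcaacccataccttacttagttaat
nhr-175, chrV:13866492-13866592: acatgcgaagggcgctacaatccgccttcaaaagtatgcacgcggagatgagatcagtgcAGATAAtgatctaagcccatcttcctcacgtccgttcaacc
The elt-1 internal window holds 4 sites, the elt-1 upstream window 3, and the window shared by ZK546.19 and cblc-1 2.

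Of 9 thresholded promoter regions with 3 or more sites, the 3 strongest not among those 6 show how sites can crowd around a summit.
T24B8.4, chrII:9064613-9064713: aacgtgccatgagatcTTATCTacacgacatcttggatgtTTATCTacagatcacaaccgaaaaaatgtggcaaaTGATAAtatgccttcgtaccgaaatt
ptr-18, chrII:12965277-12965377: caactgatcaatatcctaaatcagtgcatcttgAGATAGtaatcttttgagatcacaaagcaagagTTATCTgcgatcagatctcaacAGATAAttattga
pmt-2, chrV:4628581-4628681: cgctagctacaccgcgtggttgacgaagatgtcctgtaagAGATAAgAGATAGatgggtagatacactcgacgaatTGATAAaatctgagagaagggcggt
These 3 windows each hold 3 sites, on both strands in T24B8.4 and ptr-18 and on the plus strand in pmt-2. The strongest thresholded promoter regions with no site are shown against them. Each of their windows still holds the letters GATA on the plus or minus strand, though in none of the words of a GATA site.
nhr-155, chrV:539198-539298: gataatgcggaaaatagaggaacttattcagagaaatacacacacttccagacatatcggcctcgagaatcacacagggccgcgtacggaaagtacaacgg
elt-1 second internal region, chrIV:9618993-9619093: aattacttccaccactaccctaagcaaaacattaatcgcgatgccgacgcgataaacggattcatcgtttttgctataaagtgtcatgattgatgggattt
nhr-168, chrV:13333540-13333640: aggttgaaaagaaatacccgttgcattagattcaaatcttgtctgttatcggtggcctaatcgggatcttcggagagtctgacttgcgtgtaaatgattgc
The strongest promoter regions outside the thresholded list that hold a site show that the letters also occur there.
Y22D7AL.11, chrIII:1634364-1634464: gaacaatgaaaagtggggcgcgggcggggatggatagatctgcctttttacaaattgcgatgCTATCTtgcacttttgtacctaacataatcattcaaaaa
cdr-7, chrV:12412084-12412184: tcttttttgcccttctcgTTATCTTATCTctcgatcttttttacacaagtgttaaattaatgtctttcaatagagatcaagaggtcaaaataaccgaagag
The Y22D7AL.11 window holds 1 site and the cdr-7 window 2, whose letters overlap. Y22D7AL.11 also has a thresholded promoter region, with no site. Its summit lies 419 bp upstream of the start, against 44 bp for the region printed. A match of letters describes the sequence and does not show that the site is occupied.

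The strongest promoter region lay at elt-1 itself. Its signal, the value by which the authors ranked regions, was 692 in the pooled list, 8.15-fold that of the next promoter region. Because each list has its own scale, values are also given as fold over the median region of the same list. This region stood 77.4-fold over the median in replicate 1 and 66.6-fold in replicate 2, and ranked 1 in both. It spans chrIV:9615450-9615918 in an intron of elt-1 (WBGene00001249, chrIV:9614995-9620280, plus strand), with the summit 251 bp upstream of an internal transcript start. At 469 bp it was wider than any other promoter region, all of which were 264 bp wide.

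Another pair of thresholded promoter regions lay at the same gene. The upstream one, 705 bp before the nearest start and outside the gene, stood at 12.01-fold in replicate 1 and 4.07-fold in replicate 2. The second internal one, 295 bp upstream of another internal start, stood at 9.43-fold and 5.86-fold in replicates 1 and 2. Both were higher in replicate 1. The strain carries an elt-1 transgene, and how much of the signal at these 3 regions comes from its copies was not tested. Leaving out every autosomal region up to 20 kb from the gene, which was decided with the values in view, moved none of the main shares and medians beyond their intervals or replicate spread.

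The second promoter region in rank lay at hir-1, which encodes a receptor tyrosine kinase. Its region, chrV:5523291-5523554, has its summit in an exon of hir-1, 304 bp before an internal start, and it stood at 10.7-fold in replicate 1 and 6.58-fold in replicate 2. The third lay at nhr-155, a nuclear hormone receptor gene, at chrV:539116-539379, between genes and 212 bp upstream of the start. It stood at 11.6-fold in replicate 1 and 5.01-fold in replicate 2. The region at sesn-1, the worm sestrin gene, lay in one of its introns and stood at 9.78-fold and 5.92-fold in replicates 1 and 2. The window shared by ZK546.19 and cblc-1 stood at 8.65-fold and 6.27-fold in replicates 1 and 2, and that of tag-10 at 8.38-fold and 6.64-fold. All of these were higher in replicate 1, and their ranks lay between 10 and 34 in replicate 1 and between 16 and 33 in replicate 2.

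Below them the strongest regions lay at genes of varied roles. The nhr-168 region, in an exon of that nuclear hormone receptor gene, stood at 7.87-fold in replicate 1 and 5.92-fold in replicate 2. The region 886 bp upstream of adk-1, which encodes adenosine kinase, stood at 8.16-fold and 4.24-fold in replicates 1 and 2. The nhr-175 region stood at 8.14-fold and 3.60-fold. Each of the 3 again had its higher fold in replicate 1. T19B10.2 was the exception among the 12 strongest, at 5.55-fold in replicate 1 and 5.95-fold in replicate 2.

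The rest of the 20 strongest had folds of 4.21 to 8.85 in replicate 1 and 2.27 to 4.91 in replicate 2. They lay at cwf-19L2, enpl-1, rpl-3, mvk-1, C08H9.16 with vgln-1, T24B8.4, dnj-20 and grd-3. Among these, enpl-1 encodes the endoplasmic reticulum chaperone of the HSP90 family, rpl-3 a protein of the large ribosomal subunit, mvk-1 mevalonate kinase, vgln-1 vigilin and grd-3 a hedgehog-related protein. The mvk-1 region ranked 42 in replicate 1 and 494 in replicate 2, and the dnj-20 region 30 and 431, the widest differences among the 20.

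Over all 110, the median fold was 4.11 in replicate 1 and 2.76 in replicate 2, or 3.43 ± 0.957 (SD, n = 2). The 144 thresholded autosomal regions outside promoters had medians of 4.37 and 2.81 in replicates 1 and 2, so the promoter median was lower in each replicate, by less than the replicates differed from each other. This difference was not tested. The pooled signal of the thresholded promoter regions had a median of 31.9 and a range of 24.6 to 692, against a median of 7.91 and a range of 5.90 to 24.6 in the other 7304. All 351 thresholded regions are the first 351 by pooled signal, so this difference describes the list and tests nothing. Just inside the threshold lay vig-1, nhr-179, nhr-23, nlp-24 and nhr-127, with pooled signals of 24.6 to 24.8. Just outside lay the windows of eef-2 with clsp-1, R02D5.1, hmg-1.2, wip-1 with larp-1, and ddp-1 with ttc-7, at 24.2 to 24.6. The values on the 2 sides thus adjoin without a gap.

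A promoter region was matched in a replicate when that replicate's list had a summit within 100 bp. Both replicates matched 102 of the 110 thresholded promoter regions, or 92.7% (86.2 to 96.8%), against 1020 of the other 7304, or 13.97% (13.2 to 14.8%). Over all autosomal ranked regions the share was 13%. The share was lower at lower ranks of the pooled list. It was 73.8% at ranks 352 to 1000, 48.4% at 1001 to 3000, 20.7% at 3001 to 10000, 6.81% at 10001 to 20000 and 1.31% at 20001 to 30000. The pooled ranks were made from the reads of both replicates, so matching and rank are not independent.

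Among the first 351 regions of a replicate's own list, the number the thresholded list holds, stood 85 of the 110 in replicate 1 and 66 in replicate 2. In both replicates stood 50, or 45.5% (35.9 to 55.2%), and in neither stood 9. Replicate 1 had the higher fold in 87 of the 102 matched regions, against 546 of 1020 matched regions outside the list. Spearman's rho between the replicates' signals was 0.31 across the 102 matched regions and 0.14 across the 1020 others. These values are descriptions across regions that share 2 libraries and a control and that were ranked on a signal pooled from both.

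**Figure D1:**
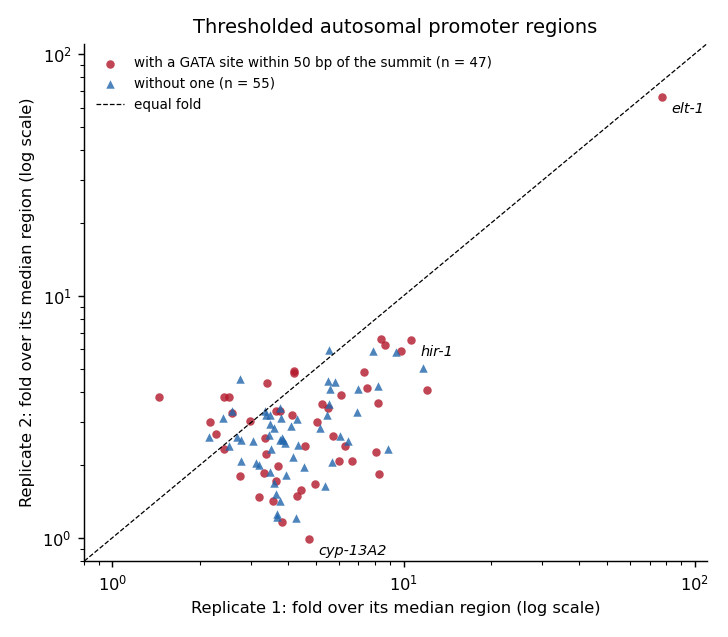
Fold over the median region in replicate 2 against replicate 1, on log axes, for the 102 thresholded autosomal promoter regions matched in both. Circles hold a GATA site within 50 bp of the summit and triangles hold none, and the dashed line marks equal fold. The elt-1 region stands apart at 77.4-fold and 66.6-fold in replicates 1 and 2, and 87 of the 102 points lie below the line.

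Among the 102 thresholded promoter regions matched in both replicates, the 5 whose rank differed most were all stronger in replicate 1. Unmatched regions, such as that of nlp-24, seen only in replicate 2, have no rank difference. At cyp-13A2, a cytochrome P450 gene, the region ranked 150 in replicate 1 and 15567 in replicate 2, with folds of 4.75 and 0.987. It thus sat near the median region of replicate 2. The others lay at C02E7.7 with C02E7.6, at enee-1, at mig-5 with cct-1, and at icd-2, with folds of 3.67 to 4.27 in replicate 1 and 1.16 to 1.25 in replicate 2. Of these genes, mig-5 encodes a Dishevelled protein of Wnt signalling and cct-1 a subunit of the cytosolic chaperonin. Among the lower-ranked thresholded promoter regions, the regions at lect-2, clp-4, F26A3.4, nhr-260 and lin-42 differed least in rank, with folds of 3.03 to 3.82 in replicate 1 and 2.51 to 3.33 in replicate 2.

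A GATA site within 50 bp of the summit was present in 50 of the 110 thresholded promoter regions, or 45.5% (35.9 to 55.2%). It was present in 1501 of the 7304 other promoter regions, or 20.6% (19.6 to 21.5%), and in 20.9% of all ranked regions. The intervals did not overlap. They did in the list of replicate 2 alone, where the shares were 28.8% of promoter regions in its first 351 ranks and 21.6% of the later ones. Outside promoters the thresholded share was 54.2% (45.7 to 62.5%), against 19.98% (19.4 to 20.6%) in the rest, and the promoter and outside intervals of the thresholded regions overlapped. At least 2 sites were present in 21 thresholded promoter regions, or 19.1%, against 3.14% of the others. At least 3 were present in 9, or 8.18%, against 0.466% of the others.

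The share with a site was highest in the first 351 ranks and lower from there on. It was 25% of promoter regions at ranks 352 to 1000, where the interval of 19.7 to 31.0% included the background, and 22.2% at ranks 1001 to 3000. At the 3 bins of lower rank it lay between 19.8% and 20.6%. Outside promoters it was 32.2% at ranks 352 to 1000 and 23.6% at 1001 to 3000.

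**Figure D2:**
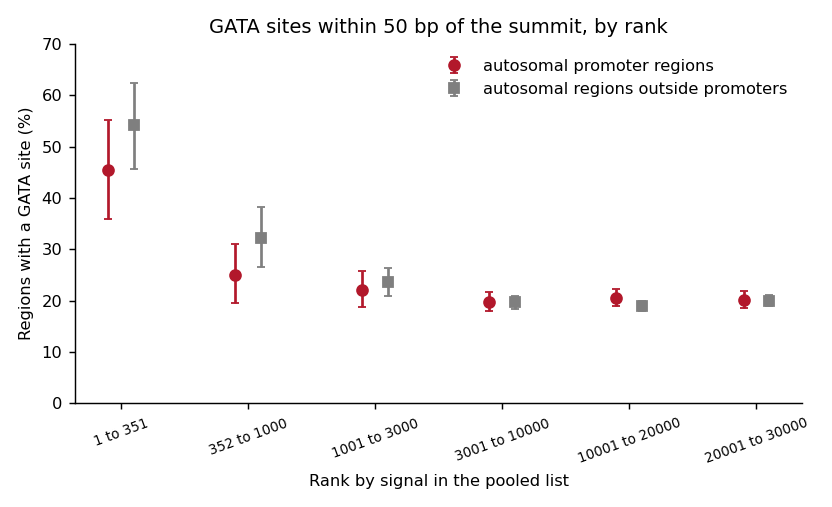
Share of regions with a GATA site within 50 bp of the summit by rank in the pooled list, for autosomal promoter regions (circles) and autosomal regions outside promoters (squares), with exact 95% intervals over regions. Promoter regions stand at 45.5% in ranks 1 to 351, at 25% in the next bin and between 19.8% and 22.2% in the others.

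Sites gathered within 50 bp of the summit. Thresholded promoter regions had 8.18 sites per kb within 25 bp of the summit and 7.27 per kb at 25 to 50 bp, against 2.54 and 2.49 per kb in the other promoter regions. At 50 to 75 bp the densities were 2.55 and 2.57 per kb. In windows of the same length centred 200 bp from the summit, upstream or downstream, sites were present in 24.5% and 21.8% of thresholded promoter regions, against 21.7% and 20.2% of the others. Sites lay on both strands. Of 81 sites in thresholded promoter regions, 36 read on the strand of the gene, or 44.4% (33.4 to 55.9%), against 42.8% (40.5 to 45.1%) in the others.

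**Figure D3:**
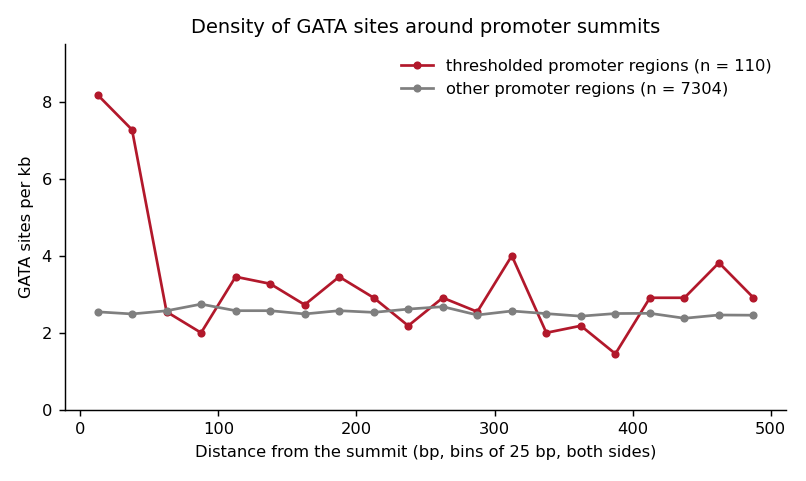
GATA sites per kb by distance from the summit, in bins of 25 bp on both sides together, for the 110 thresholded and the 7304 other autosomal promoter regions. The thresholded line stands at 8.18 and 7.27 sites per kb in the first bins and at 2.55 in the third, while the other line begins at 2.54.

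Base composition differed between the 2 kinds of promoter region. Median GC content of these windows was 42.6% in the thresholded and 37.6% in the other promoter regions, and 37.6% over all ranked regions. The medians were the same outside promoters, 42.6% in thresholded autosomal regions and 37.6% in the rest. GC-rich windows hold fewer GATA sites, so the share was also counted within classes of GC content. Below 35% GC a site was present in 11 of 14 thresholded promoter regions, or 78.6% (49.2 to 95.3%), against 24.9% of the others. From 35 to 45% GC it was present in 51.7% (38.2 to 65.0%), against 20.9%. At 45% GC or more it was present in 23.7% (11.4 to 40.2%), against 11.8% (10.2 to 13.5%), where the intervals overlapped.

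The 4 words of the GATA site differed in how often they occurred. AGATAA was present in 30% of thresholded promoter regions, against 6.86% of the others and 6.94% of all ranked regions. AGATAG was present in 13.6%, against 3.89% and 3.42% of the same groups. TGATAA was present in 13.6%, against 8.35% and 8.60%, and TGATAG in 3.64%, against 3.61% and 4.04%. The intervals of thresholded and other promoter regions were apart for AGATAA and AGATAG and overlapped for TGATAA and TGATAG.

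Words known from other elements were counted in the same windows on both strands. TTTCAG, the letters of the worm splice acceptor, was present in 4 of 110 thresholded promoter regions, or 3.64% (1.00 to 9.05%), against 18.6% (17.7 to 19.5%) of the others and 17.4% of all ranked regions. GAGAGA was present in 17.3% (10.7 to 25.7%), against 7.95% (7.34 to 8.60%) and 7.26%. TATAAA, known from the box that general transcription factors bind, was present in 5.45%, against 10.2% and 9.03%. AGGTCA, the core letters of many nuclear receptor sites, was present in 6.36%, against 3.16% and 2.97%, and CACGTG, an E-box, in 2.73%, against 2.38% and 2.04%. TGACTCA, a site of AP-1 factors, was present in 0.909%, against 1.07% and 1.01%. Intervals of thresholded and other promoter regions were apart for TTTCAG and GAGAGA and overlapped for the other 4 words. These 2 differences were not particular to promoters. Outside promoters, TTTCAG was present in 3.47% of thresholded autosomal regions, against 17.9% of the rest, and GAGAGA in 18.1%, against 6.86%.

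The printed windows hold a further short word, AGATC, in 8 of 14, which was counted only after they had been seen. Most of these windows are among the 110 regions and were not left out, so the counts of AGATC are description and test nothing. AGATC cannot be part of a GATA site but can share its end base, as in the elt-1 upstream window. AGATC was present on either strand in 41 of the 110 thresholded promoter regions, or 37.3% (28.2 to 47.01%), against 12.7% (11.9 to 13.4%) of the others and 13.6% of all ranked regions. Autosomal regions outside promoters were alike, with 41.0% of the thresholded and 14.1% of the rest. In windows 200 bp upstream and downstream it was present in 10% and 14.5% of thresholded promoter regions, against 12.02% and 12.2% of the others. Thresholded promoter regions with a GATA site held it in 28 of 50, or 56.0%, against 14.1% of other promoter regions with a site. Those without a GATA site held it in 13 of 60, or 21.7% (12.1 to 34.2%), against 12.3% (11.4 to 13.1%), where the intervals overlapped. Below 35% GC, AGATC was present in 78.6% of thresholded promoter regions, against 10.8% of the others. From 35 to 45% GC it was present in 36.2%, against 14.1%. At 45% GC or more it was present in 23.7% (11.4 to 40.2%), against 13.5% (11.8 to 15.3%), and the intervals overlapped.

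The GATA site was also counted in each replicate's own list. In replicate 1 it was present in 48 of the 110 promoter regions among the first 351 ranks, or 43.6% (34.2 to 53.4%), against 21.2% (20.3 to 22.2%) of the later ones. In replicate 2 it was present in 28.8% (20.4 to 38.6%), against 21.6% (20.7 to 22.6%). The intervals were apart in replicate 1 and overlapped in replicate 2, so the separation seen in the thresholded list was not seen in replicate 2 alone. AGATC was present in 33.6% of the first promoter regions of replicate 1 (24.9 to 43.3%), against 12.55% of the later ones. In replicate 2 it was present in 23.1% (15.4 to 32.4%), against 12.3% (11.6 to 13.1%), with intervals apart in both replicates.

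Thresholded promoter regions lay at a median of 247.5 bp upstream of the nearest start in whose window they fell (quartiles 610 and 124 bp upstream). The other promoter regions had a median of 267 bp upstream (quartiles 611 and 22 bp). The share in the thresholded list was highest from 100 to 300 bp upstream, where 37 of 1402 regions, or 2.64% (1.86 to 3.62%), were in it. It was 0.984% (0.451 to 1.86%) in the 100 bp before the start, 1.30% from 300 to 500 bp, 1.50% from 500 to 1000 bp and 0.866% (0.474 to 1.45%) downstream of the start. Of the 37 regions at 100 to 300 bp, 15 held a GATA site, or 40.5%, and of the 9 in the last 100 bp 2 did.

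**Figure D4:**
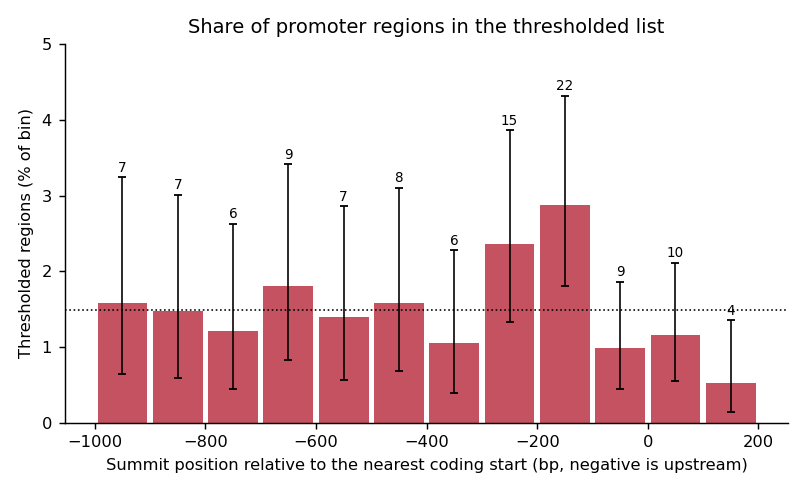
Share of autosomal promoter regions in the thresholded list by summit position relative to the nearest protein-coding start, in bins of 100 bp, with exact 95% intervals over regions and the number of thresholded regions above each bar. The dotted line is the share over all promoter regions, 1.48%, and the bins from 300 to 100 bp upstream reach 2.36% and 2.87%.

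Thresholded promoter regions sat inside genes less often than the others. The summit lay in a protein-coding gene in 38 of 110, or 34.5% (25.7 to 44.2%), against 55.8% (54.7 to 57.0%) of the others. Of the 38, 16 lay in an exon and 22 in an intron, and 33 lay in the gene whose window held them. An exon held 14.5% (8.55 to 22.5%), against 34.1% (32.98 to 35.2%) of the others. The intervals were apart for both. Windows of genes on both strands held the summit in 19, or 17.3% (10.7 to 25.7%), against 12.1% (11.3 to 12.8%), where the intervals overlapped.

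Promoters made up a larger share of strong regions than of weak ones. They held 43.3% (37.1 to 49.6%) of the autosomal regions in ranks 1 to 351, 48.2% in ranks 352 to 1000, 36.8% in ranks 1001 to 3000 and 28.2% (27.2 to 29.2%) in the last 10000 ranks. Between places, the thresholded share was 1.48% in promoters, against 1.76% (1.41 to 2.17%) between genes, 0.894% (0.660 to 1.18%) in introns and 0.143% (0.0654 to 0.271%) in exons. The promoter interval overlapped that of regions between genes and was above those of introns and exons. Promoters of chromosome X had 2.23% (1.55 to 3.08%), an interval that overlapped the autosomal one. Among the autosomes the share ran from 1.05% on chromosome V to 1.98% on chromosome II, with overlapping intervals, and a GATA site was present in 4 of 16 thresholded promoter regions on chromosome III and in 45.8 to 50% on the others.

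The 110 regions lay in the windows of 127 autosomal genes, which is 1.86% of the 6832 that had any ranked region in their window. A few genes or neighbours held several regions. elt-1 held 3, nhr-155 2 and nhr-179 2. On chromosome IV the neighbouring hedgehog-related genes grd-13, grd-3 and grd-10 held 1 each, with summits 1406 and 1431 bp apart. A gene for a transfer, small nuclear or small nucleolar RNA lay within 200 bp of the summit in 5 thresholded promoter regions, or 4.55% (1.49 to 10.3%), against 0.931% (0.724 to 1.18%) of the others. They were the snRNA genes sls-2.4 near egg-5, sls-2.8 near tim-1, sls-2.1 near H41C03.3, and the snoRNA genes Y53F4B.47 near cmtr-1 and F59C6.15 near F59C6.18. The sls-2 genes encode a spliced leader RNA of trans-splicing. These 5 were named because of their neighbours, after their values were seen.

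Lists of genes related to the epidermis and to ELT-1 were counted against that 1.86%. Of 247 annotated autosomal nuclear hormone receptor genes, which encode ligand-regulated transcription factors, 121 had a ranked region and 17 a thresholded one, or 14.05% (8.40 to 21.5%). Their regions were also 17, 10 of them on chromosome V, 5 on I and 2 on II, but not 1 per gene. The genes nhr-155 and nhr-179 held 2 each, while nhr-152 shared its region with nhr-94 and nhr-169 with nhr-89. The interval treats genes that share a region as separate. These sharing genes were named after their values were seen. Besides nhr-155, nhr-168 and nhr-175, the strongest lay at nhr-265, with 6.90-fold in replicate 1 and 3.30-fold in replicate 2. A GATA site was present in 6 of the 17, or 35.3% (14.2 to 61.7%), against 44 of the 93 regions at other genes, or 47.3% (36.9 to 57.9%). The intervals overlapped.

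Secreted hedgehog-related proteins of worms, many of them made by the epidermis, had 49 annotated autosomal genes. Of the 20 with a ranked region 4 had a thresholded one, or 20% (5.73 to 43.7%). The grd-3 region stood at 5.81-fold in replicate 1 and 4.40-fold in replicate 2, and that of grd-10 at 5.49-fold and 3.44-fold. The grd-13 region stood at 6.29-fold and 2.40-fold, and the wrt-10 region, in an exon, at 2.52-fold and 3.82-fold, higher in replicate 2. All but grd-3 held a GATA site. Of 10 patched-related receptor genes with a ranked region, ptr-18 alone had a thresholded one, at 4.21-fold in replicate 1 and 4.80-fold in replicate 2, with the 3 sites shown above.

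Among 7 epidermal transcription factor genes with a ranked region, elt-1 and nhr-23 had a thresholded one. nhr-23, needed for molting, has its region 890 bp upstream, at 3.57-fold in replicate 1 and 1.42-fold in replicate 2. Of the 3 GATA factor genes with a ranked region, only elt-1 was in the thresholded list. Of 54 collagen genes of the cuticle with a ranked region, dpy-10 alone had a thresholded one, or 1.85% (0.0469 to 9.89%), at 4.56-fold in replicate 1 and 1.96-fold in replicate 2. Its summit, 206 bp upstream of dpy-10, lay in an intron of another gene, T14B4.19. Of 13 apical matrix and molting genes noah-1, which encodes a zona pellucida domain protein of the apical matrix, had one at 8.21-fold in replicate 1 and 1.83-fold in replicate 2. Of 12 epidermal junction and attachment genes, ifb-1, an intermediate filament gene, had one at 3.71-fold and 1.97-fold in replicates 1 and 2.

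The antimicrobial peptide gene nlp-24, one of 9 with a ranked region, was matched only in replicate 2, at 3.19-fold. Of 6 heterochronic genes, which time larval fates, lin-42 had a thresholded region in an intron, at 3.77-fold in replicate 1 and 3.33-fold in replicate 2. One of 10 Wnt and asymmetry genes, mig-5, and none of 9 TGF-beta genes were in the list.

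Genes of general cell functions were counted in the same way. Of 55 cytosolic ribosomal protein genes with a ranked region, 5 had a thresholded one, or 9.09% (3.02 to 19.95%). They were rpl-3, at 6.95-fold in replicate 1 and 4.10-fold in replicate 2, and rpl-35, rpl-20, rpl-15 and rpl-12, at 2.77 to 5.18-fold and 2.15 to 2.84-fold in replicates 1 and 2. rpl-12, outside the rule of 4 genes per list, was named after its values were seen. The regions of rpl-20, rpl-15 and rpl-12 also lay in the windows of Y17G9B.5, K11H12.8 and lin-54, in that order. The rpl-20 summit was nearer the start of Y17G9B.5, at 188 bp upstream, than that of rpl-20, at 274 bp. None of these 5 windows held a GATA site, and their median GC content was 49.5%. Thresholded regions were also present at 1 of 6 endoplasmic reticulum chaperone genes (enpl-1), 1 of 8 cytosolic chaperone genes (cct-1), 1 of 18 cell cycle genes (fzr-1), 1 of 12 fatty acid synthesis genes (fasn-1), 1 of 23 cytochrome P450 genes (cyp-13A2) and 2 of 16 histone genes. Those 2, his-67 and his-68, share 1 region, and cct-1 shares its region with mig-5, counted above. None of 9 vacuolar ATPase genes had one.

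**Figure D5:**
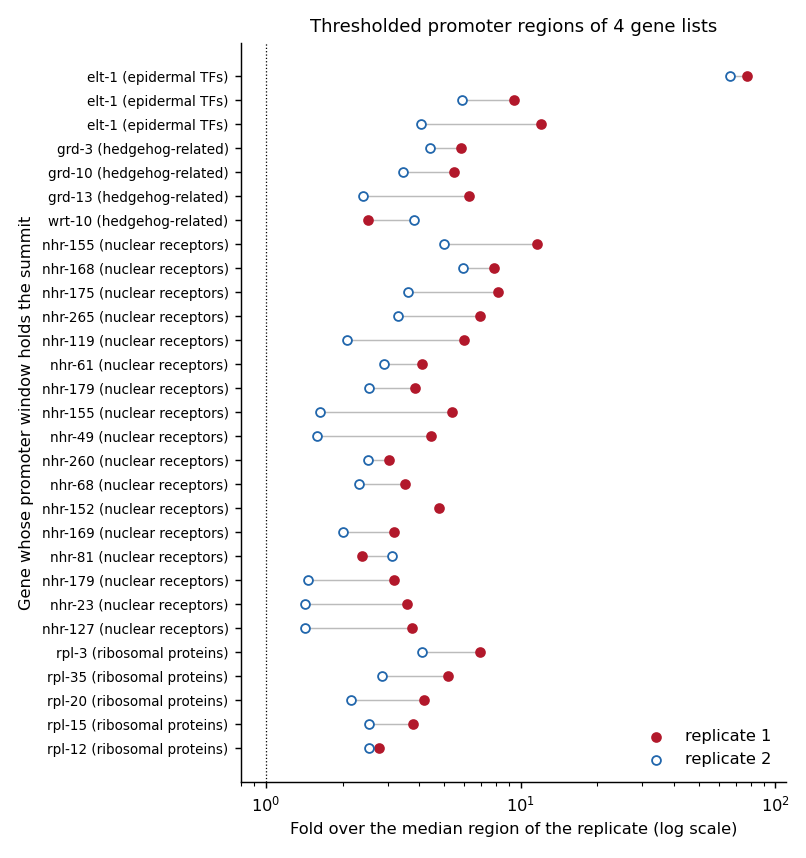
Fold over the median region in replicate 1 (filled) and replicate 2 (open), on a log axis, for the thresholded promoter regions of 4 gene lists, each line joining the values of 1 region. The dotted line marks the median region. The strongest elt-1 region reaches 77.4-fold and 66.6-fold, and all other points lie between 1.42-fold and 12.01-fold.

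Markers of other tissues had no thresholded region in their promoters. This was so for 0 of 1 intestine marker genes with a ranked region, 0 of 7 of body wall muscle, 0 of 5 of pharynx, 0 of 13 of neurons and 0 of 9 of the germline. With so few genes the upper limits of the exact intervals were 24.7% for neurons and higher for the rest, so these counts cannot be set apart from the 1.86% of all genes. In all, 41 of the 110 regions lay in windows of listed genes, and the lists overlap, as with nhr-23.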

How the data were processed

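ELT-1 ChIP-seq was measured in 2 biological replicates of 1 group, taken from the labels. The deposited signal is the value by which the authors ranked 30000 regions per list, 1 list for each replicate and 1 for both pooled. Per the listing deposited with the files, each list was made from alignments with a control, and the thresholded list is by the irreproducible discovery rate. Which aligner, peak caller and threshold were used is not stated in the labels or listing read here. Signal was divided by the median region of its own list.

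Starts came from Ensembl release 115, in windows of 1000 bp upstream to 200 bp downstream, and sequence from the RefSeq genome of WBcel235. Lists on ce10 and score columns were not used. Words were counted from 50 bp before to 50 bp after the summit, on both strands, and shares have exact Clopper-Pearson 95% intervals. No test between samples was possible with 1 group.

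Named genes are the 20 strongest thresholded promoter regions, the 5 on each side of the threshold, the strongest on each autosome, up to 4 per list, the 5 with the largest and 5 with the smallest rank difference between replicates, the 3 with most sites, and those whose sequence is printed. Sequences leave out chromosome I. They are the 6 strongest thresholded promoter regions with a site, the 3 strongest without one and the 2 strongest outside the threshold with one. Others with 3 or more sites were added, to 14 in all. The plot by gene list shows every region of its 4 lists. The members and the 25 gene lists were chosen with earlier results of these data known. Alternatives changed the promoter window, the starts, the site, the matching distance, the part of the list used and the replicates. Python 3.11.15, pandas 2.3.3, NumPy 2.4.6, SciPy 1.17.1 and matplotlib 3.10.9 were used, and the steps were tested on simulated data.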

Additional observations from a re-analysis of the deposited data

How the results depend on the processing

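Among the alternatives, 46 values stayed within the interval or replicate spread of the reported one and 20 moved. Only the offset could have changed direction, since shares and folds are never negative, and it did not. The median fold in 1 replicate alone always lies within the replicate spread of the mean of 2, so that outcome was fixed in advance. With only the stronger regions of the thresholded list (ranks up to 175), the share of promoter regions in it was 0.674%, the median fold 4.64, the share matched in both replicates 100%, the share among the first regions of both 78.0% and the median offset -299.5 bp. The offset was -170 bp with a window of 500 bp upstream to 100 bp downstream, -473 bp with a wider one and -217 bp with outermost starts only. The share with a GATA site in thresholded promoter regions, then in the others, was 30.9% and 10.6% within 25 bp, 30% and 6.86% for AGATAA alone, and 81.8% and 49.5% for the letters GATA. Within 100 bp the others had 37.3%. The list of 1 replicate alone was also used, its first 351 regions standing in for the thresholded list. The share with a GATA site in those first promoter regions ran from 28.8% to 43.6%, the low value from replicate 2. That of the later ones ran from 21.2% to 21.6%, and the offset of the first ones from -282.5 to -243.5 bp. Matching within 50 bp gave 82.7% and within 200 bp 97.3%. The causes were not tested. No paired analysis was possible because the labels give 1 group, so no groups share replicate numbers. Depth is unknown, the 2 replicates limit the precision, and no outlier could be sought among so few samples.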
